A study of Homo sapiens with 4 samples.

Results

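The heat shock proteins and the DNAJ cochaperones are the main chaperone families of human cells, and here they were described in 4 prostate cancer cell lines. The members were chosen by symbol as the genes named HSPA, HSPB, HSPD, HSPE, HSPH, DNAJA, DNAJB or DNAJC with a number, together with HSP90AA1, HSP90AB1 and HSP90B1. This gave 63 of the 22637 genes in the deposited table. By family they comprised 3 HSP90 genes, 10 HSP70 genes, 3 HSP110 genes, the 2 genes of the HSP60 chaperonin and its HSP10 lid, 5 genes numbered as small heat shock proteins, 4 DNAJA genes, 10 DNAJB genes and 26 DNAJC genes. By the compartment of the protein, 13 were assigned to the endoplasmic reticulum (ER), 8 to the mitochondria and 32 to the cytosol or nucleus, and 10 were left unassigned.

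RNA was sequenced from 1 library per cell line. LNCaP is a castration-sensitive prostatic adenocarcinoma line, C4-2B is a castration-resistant line descended from LNCaP, and LN-OlapR and 2B-OlapR are the sublines of LNCaP and C4-2B that the authors made resistant to the PARP inhibitor olaparib by long culture in the drug. All 4 lines are labelled untreated and were plated without selection per the labels, whereas in routine culture the resistant lines were kept in olaparib. Each resistant state is represented by 1 derived line. LN-OlapR was compared with LNCaP (the LN pair), 2B-OlapR with C4-2B (the 2B pair) and C4-2B with LNCaP (the parental pair, which shares a library with each of the others). With 1 library per line there is no replicate check of any difference, no test was made and no p-value is given. Each level is a normalized CPM, that is, counts scaled to a common library size with TMM factors, and each log2 ratio carries a 95% interval that covers counting error only and not the difference between cultures.

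Chaperones of the HSP70 family bind unfolded stretches of protein in cycles driven by ATP. DNAJ proteins deliver clients to HSP70 and start ATP hydrolysis through their J domain, and HSP110 proteins release the nucleotide to end the cycle. HSP90 proteins act later, on clients that are nearly folded, such as protein kinases and steroid receptors. Small heat shock proteins hold unfolded proteins without ATP. HSPA5 and HSP90B1 are the HSP70 and HSP90 of the ER lumen, and HSPA9 and the HSPD1 and HSPE1 chaperonin serve the mitochondrial matrix.

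The totals lay between 19950537 and 26394267 counts per library, and the interval of every level of at least 100 normalized CPM was within 4.26% of that level. All 11 luminal prostate markers checked were at 1 normalized CPM or more in every library, and they summed to 4142 in LNCaP and 7807 in LN-OlapR, and to 5060.6 in 2B-OlapR and 6125 in C4-2B. KLK3, which encodes prostate-specific antigen, stood at 53.1 in LNCaP and between 1870.1 and 2685 in the other lines. Of 10 markers of immune, endothelial and stromal cells, 5 were in the table, and these summed to between 12.3 and 32.8. The part of these marker levels in the chaperone values was not tested. In bulk RNA, fewer cells expressing a gene and less RNA per cell cannot be told apart.

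Some of the genes carry in their promoters the elements through which stress factors act, and these are shown because the 2 elements searched fell on different members. A heat shock element, bound by HSF1, is built of inverted repeats of the letters GAA, and the form searched was GAANNTTCNNGAA or TTCNNGAANNTTC, which covers both strands. An ER stress element, bound by ATF6 with NF-Y, was searched as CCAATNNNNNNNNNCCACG and its reverse complement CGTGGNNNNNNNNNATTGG. The windows ran from 250 bases before to 50 bases after each RefSeq gene start on GRCh38.p14, and 58 of the 63 members had at least 1 of them. The heat shock element was found for 7 of the 58 (12.1%) and for 166 of 27305 genes in all (0.608%). The ER stress element was found for 2 of the 58 (3.45%) and for 25 of the 27305 (0.0916%). A match is a description of the letters and not evidence of binding. A member without a match may still hold the element in another form or outside the window. Windows before the gene start that touch no annotated exon are printed with the element in capitals.
HSPA5, chr9:125241376-125241424, minus strand: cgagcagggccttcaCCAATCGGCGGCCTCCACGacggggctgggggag
HSP90AB1, chr6:44247763-44247805, plus strand: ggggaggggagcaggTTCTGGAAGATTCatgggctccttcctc
HSP90AB1, chr6:44247816-44247858, plus strand: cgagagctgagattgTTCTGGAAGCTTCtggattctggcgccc
HSPA6, chr1:161524451-161524493, plus strand: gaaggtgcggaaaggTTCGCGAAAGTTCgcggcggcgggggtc
DNAJB6, chr7:157336858-157336900, plus strand: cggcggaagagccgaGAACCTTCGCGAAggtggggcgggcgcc
For the other matches the element alone is printed, since the bases around it touch an annotated exon.
HSP90B1, chr12:103930216-103930234, plus strand: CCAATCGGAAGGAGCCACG
HSP90B1, chr12:103930321-103930339, plus strand: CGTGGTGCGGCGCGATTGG
HSP90AA1, chr14:102087120-102087132, minus strand: TTCCGGAAGGTTC
HSPA8, chr11:123062354-123062366, minus strand: GAAAGTTCCAGAA
HSPA8, chr11:123062179-123062191, minus strand: TTCTGGAAGGTTC
DNAJA1, chr9:33025276-33025288, plus strand: GAACTTTCCAGAA
HSPD1, chr2:197500073-197500085, minus strand: TTCTGGAAAGTTC
HSPD1, chr2:197500068-197500080, minus strand: GAAAGTTCTGGAA
HSPA5 and HSP90B1 were thus the members with an ER stress element, and no member had both elements in these windows. HSP90AB1, HSPA8 and HSPD1 each had 2 heat shock elements, which overlap each other in HSPD1. In DNAJA1 the element lies after the gene start.

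The 63 members together took 1.41% of the counts in LNCaP (95% Wilson interval 1.408 to 1.417) and 1.45% in LN-OlapR, and 1.46% in 2B-OlapR and 1.49% in C4-2B. As a share of all counts the pool was thus of like size in every line. In normalized CPM it summed to 13870 in LNCaP against 15117 in LN-OlapR, and to 14565 in C4-2B against 14611 in 2B-OlapR. The log2 ratios of these sums were 0.12 (interval 0.12 to 0.13) in the LN pair and 0.0045 (interval -0.0028 to 0.01) in the 2B pair. With scaling by total counts they were 0.04 and -0.04. HSPA8, the constitutive HSC70, and the cytosolic HSP90 genes HSP90AA1 and HSP90AB1 were the 3 members with the most counts in each library, with 49.1% of the members' counts in LNCaP and 49.6% in LN-OlapR, and 45.6% in 2B-OlapR and 45.4% in C4-2B. Per kb of the longest annotated transcript, HSPA8 led in LNCaP at 1005 normalized CPM per kb and in LN-OlapR at 1180.5. In C4-2B and 2B-OlapR the highest level per kb was that of HSPB1, the small heat shock protein HSP27, at 1337 and 1268. On that scale HSPB1 was the fourth in LNCaP at 504. Of the 63 genes, 19 were at 100 normalized CPM or more in every library and 60 had counts in every library. By line, 24 members were highest in 2B-OlapR, 17 in LN-OlapR, 13 in LNCaP and 9 in C4-2B. These counts cover all 63 genes, including those of very low level, and use the TMM scaling only. They were not made over all genes, so whether this split is particular to the members was not tested. Among the 56 with a mean of at least 1 over the 4 libraries and counts in each, 9 (16.1%) differed 2-fold or more between their highest and lowest library, against 33.2% of all 15495 such genes.

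**Figure D1:**
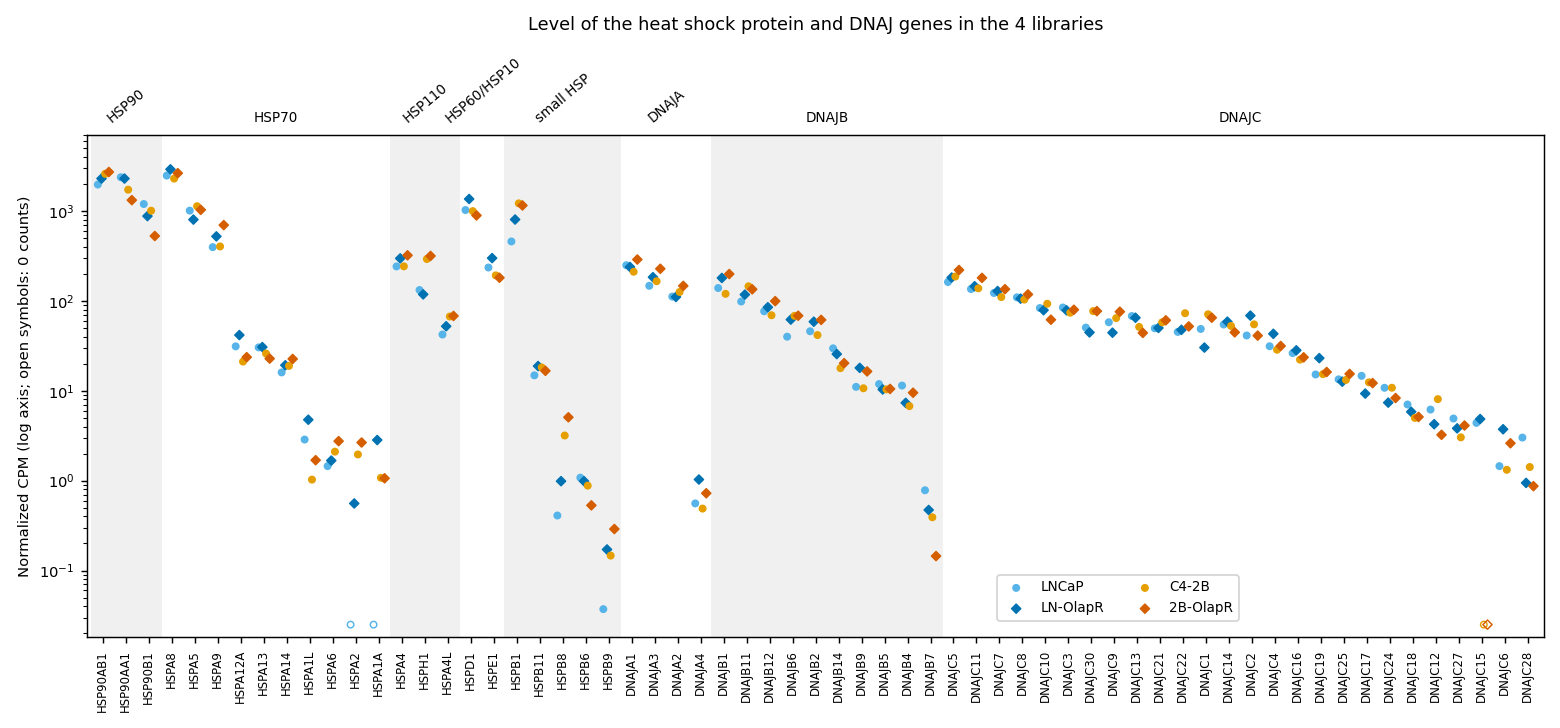
Level of each of the 63 genes in the 4 libraries, by family, in normalized CPM on a log axis, with circles for the parental and diamonds for the resistant lines. Open symbols at the bottom mark 0 counts, which HSPA1A and HSPA2 had in LNCaP and DNAJC15 in C4-2B and 2B-OlapR, while most genes of high level keep the 4 symbols close together.

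In the LN pair, 58 members had a mean of at least 1 normalized CPM and were analysed, and DNAJA4, DNAJB7, HSPA2, HSPB8 and HSPB9 were below it. Their median log2 ratio was 0.10, with 34 higher and 24 lower in LN-OlapR, against -0.0040 over all genes analysed. At 1.5-fold or more, 8 members (13.8%) were higher, against 10.6% of all genes, and 4 (6.90%) were lower, against 10.8% of all genes. At 2-fold or more the counts were 2 higher, against 4.64% of all genes, and 1 lower, against 4.83%. The 8 higher members include HSPA1A, whose reads cannot be separated from those of its copy, as described with the HSP70 genes. These shares lay near those of all genes, so what follows concerns single members.

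In the 2B pair, 58 members were analysed, without DNAJA4, DNAJB7, DNAJC15, HSPB6 and HSPB9. The median log2 ratio was 0.10, with 37 higher and 21 lower in 2B-OlapR, against a median of -0.00026 over all genes analysed. At 1.5-fold or more, 6 members (10.3%) were higher, against 10.7% of all genes, and 4 (6.90%) were lower, against 13.5% of all genes. At 2-fold or more, 0 members were higher, against 4.42% of all genes, and 1 was lower, against 5.65%. The higher members were DNAJC6, HSPA9, DNAJB1, HSPA1L, HSPB8 and DNAJB9, and the lower ones DNAJC12, HSP90B1, DNAJC28 and DNAJC10.

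**Figure D2:**
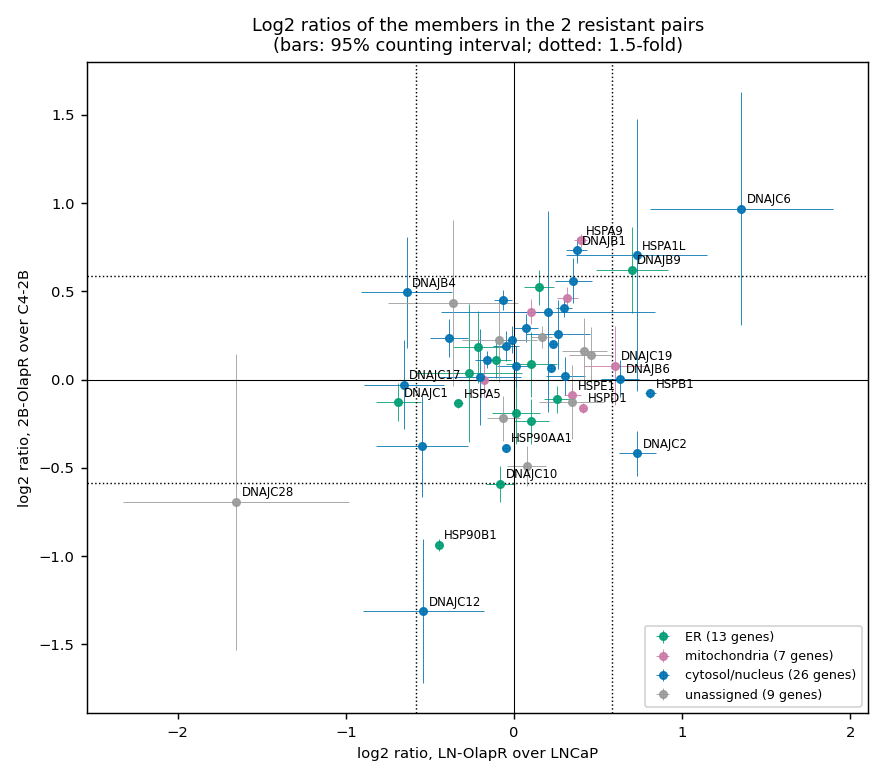
Log2 ratio of each of 55 members in the LN pair (horizontal) and in the 2B pair (vertical), coloured by compartment, with 95% counting intervals and dotted lines at 1.5-fold. The 2 pairs share no library, HSPA1A is left out, and DNAJB9, DNAJC6 and HSPA1L lie past 1.5-fold at the upper right while DNAJC28 does so at the lower left.

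Among the 56 members analysed in both pairs, 34 (60.7%) had the same direction in both, 23 higher and 11 lower, against 57.6% of 14602 genes. Past 1.5-fold in both pairs, 3 members (5.36%) were higher, against 2.42% of all genes. They were DNAJB9, the ER cochaperone ERdj4, DNAJC6, the auxilin that helps HSP70 uncoat clathrin vesicles, and HSPA1L, an HSP70 best known from testis. One member was lower in both (1.79%, against 3.0% of all genes), DNAJC28, and no member was past 1.5-fold in opposite directions, as 2.94% of all genes were. DNAJB9 stood at 18 normalized CPM in LN-OlapR and 11 in LNCaP, while 2B-OlapR had 16.4 and C4-2B 10.7. Its log2 ratio was 0.70 (interval 0.49 to 0.91) in the LN pair and 0.62 (interval 0.38 to 0.87) in the 2B pair, so both resistant lines were above both parental lines. With scaling by total counts the ratio of DNAJB9 in the 2B pair was 0.58, just under 1.5-fold. DNAJC6 stood at 1.45 normalized CPM in parental LNCaP and 1.32 in parental C4-2B, and at 3.73 in LN-OlapR and 2.61 in 2B-OlapR, again with both resistant lines on top, and its log2 ratios were 1.35 (interval 0.81 to 1.89) and 0.97 (interval 0.31 to 1.63). HSPA1L lay at 2.86 normalized CPM in LNCaP against 4.76 in LN-OlapR, and at 1.03 in C4-2B against 1.69 in 2B-OlapR, with log2 ratios of 0.73 (interval 0.31 to 1.15) and 0.71 (interval -0.07 to 1.48). DNAJC28 lay at 0.943 normalized CPM in LN-OlapR and 3.01 in LNCaP, while 2B-OlapR had 0.869 and C4-2B 1.42, with log2 ratios of -1.65 (interval -2.33 to -0.98) and -0.69 (interval -1.53 to 0.15). Except for DNAJB9 these genes lie near the lower end of what was analysed, and in the 2B pair the intervals of HSPA1L and DNAJC28 include 0. HSPA1L also shares much of its coding sequence with HSPA1A and HSPA1B, so some of its reads may have been assigned between them.

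The 2 cytosolic HSP90 genes differed between the lines in opposite ways. HSP90AA1, the stress-inducible alpha form, on chromosome 14 from 102080738 to 102139699 on the minus strand in GENCODE 29 of GRCh38, stood at 2373 normalized CPM in parental LNCaP and 1724 in parental C4-2B, and at 2293 in LN-OlapR and 1319.6 in 2B-OlapR. HSP90AB1, the constitutive beta form, on chromosome 6 from 44246166 to 44253888 on the plus strand, stood at 1967 normalized CPM in LNCaP against 2294 in LN-OlapR, and at 2591 in C4-2B against 2715 in 2B-OlapR. Alpha was thus lowest in 2B-OlapR and highest in LNCaP, and beta the reverse. Of the counts of both genes, HSP90AA1 made up 54.7% in LNCaP and 49.999% in LN-OlapR, and 39.95% in parental C4-2B and 32.7% in 2B-OlapR. That share does not depend on the scaling between libraries, and it was lower in the resistant line of each pair and in both C4-2B lines than in both LNCaP lines. The log2 ratio of HSP90AA1 was -0.05 (interval -0.07 to -0.03) in the LN pair and -0.39 (interval -0.41 to -0.36) in the 2B pair, and that of HSP90AB1 was 0.22 (interval 0.20 to 0.24) and 0.07 (interval 0.05 to 0.08). Their sum differed by only 0.08 (interval 0.07 to 0.09) and -0.10 (interval -0.11 to -0.08), and with scaling by total counts the first of these was -0.0044. Pseudogene copies took between 2.51% and 3.59% of the reads of these genes.

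Of the genes for HSP90 cochaperones, from a list of 17, 13 had a log2 ratio above 0 in the LN pair (76.5%, against 49.6% of all genes) and 12 in the 2B pair (70.6%, against 49.98%), with medians of 0.10 and 0.11, and 10 did so in both (against 28.5% of all genes). Many of these ratios were small, and with scaling by total counts the numbers were 9 of 17 in the LN pair, against 40.6% of all genes, and 11 of 17 in the 2B pair, against 46.1%. Of these genes 2 were past 1.5-fold higher in the LN pair (11.8%, against 10.6% of all genes) and 0 in the 2B pair (against 10.7%). In the 2B pair 1 was past 1.5-fold lower (5.88%, against 13.5%). The widest spread was that of FKBP5, an immunophilin cochaperone of steroid receptors whose gene steroid hormones induce. It stood at 441 normalized CPM in LN-OlapR and 194 in LNCaP, while 2B-OlapR had 257 and C4-2B 391, which gave log2 ratios of 1.18 (interval 1.14 to 1.23) and -0.60 (interval -0.66 to -0.55), in opposite directions. NUDC, a cochaperone linked to dynein, had the highest ratio of the 2B pair at 0.47 (interval 0.42 to 0.53) and CDC37L1 the lowest in the LN pair at -0.40 (interval -0.60 to -0.21).

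Of the HSP70 genes, HSPA8 was the most abundant and was modestly higher in both resistant lines. It stood at 2476 normalized CPM in parental LNCaP and 2291 in parental C4-2B, and at 2907 in LN-OlapR and 2635 in 2B-OlapR, with log2 ratios of 0.23 (interval 0.22 to 0.25) and 0.20 (interval 0.18 to 0.22). HSPA1A, the classical stress-inducible HSP70, was given 0 counts in LNCaP and 66 in LN-OlapR, and 22 each in parental C4-2B and in 2B-OlapR. Its near-identical neighbour HSPA1B, which the symbol rule leaves out by its final letter, was given 7981, 10170, 10819 and 11018 counts in LNCaP, LN-OlapR, C4-2B and 2B-OlapR. How reads were split between these copies cannot be read as expression of one of them, so they were summed, a choice made after the values were seen. Together they stood at 297 normalized CPM in LNCaP against 439 in LN-OlapR, and at 529.8 in C4-2B against 533 in 2B-OlapR. LNCaP was the lowest, the log2 ratio was 0.56 (interval 0.52 to 0.61) in the LN pair and 0.01 (interval -0.03 to 0.05) in the 2B pair, and the count of members 1.5-fold higher in the LN pair was 6 when each member was summed with its copies. HSPA6, which cells make almost only under strong stress and which has a heat shock element in the window printed above, was low throughout at 1.67 normalized CPM in LN-OlapR and 1.45 in LNCaP, while 2B-OlapR had 2.75 and C4-2B 2.10. HSPA2, known from the testis, had 0 counts in LNCaP, where the limit of 3 counts corresponds to 0.112 normalized CPM, and stood at 0.557 in LN-OlapR, and at 1.95 and 2.65 in C4-2B and its subline. Against LNCaP it was therefore at least 17.5-fold higher in C4-2B, and LN-OlapR exceeded it by at least 4.99-fold.

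HSP70 cochaperones outside the DNAJ genes were split, with 6 of 11 higher in each resistant pair (54.5%, against 49.6% and 49.98% of all genes). Higher in both were 3, against 28.5% of all genes. BAG3, which joins HSP70 to small heat shock proteins in selective autophagy, stood at 97.8 normalized CPM in parental LNCaP and 137 in parental C4-2B, and at 119.5 in LN-OlapR and 273 in 2B-OlapR, with log2 ratios of 0.29 (interval 0.21 to 0.37) and 0.99 (interval 0.92 to 1.05). HSPB8, the small heat shock protein that binds BAG3, was far lower but had its lowest and highest level in the same lines, at 0.409, 0.986, 3.18 and 5.07 normalized CPM in LNCaP, LN-OlapR, C4-2B and 2B-OlapR. For the 2B pair the log2 ratio was 0.67 (interval 0.22 to 1.11), and for the LN pair it was below the minimum level. STUB1, the ubiquitin ligase CHIP that marks HSP70 clients for degradation, stood at 155 normalized CPM in LNCaP against 236 in LN-OlapR, and at 261 in C4-2B against 343 in 2B-OlapR, and had log2 ratios of 0.60 (interval 0.55 to 0.66) and 0.39 (interval 0.34 to 0.45). BAG2, an inhibitor of CHIP, lay at 8.06 normalized CPM in LN-OlapR and 18.1 in LNCaP, while 2B-OlapR had 13.9 and C4-2B 19.99, the opposite direction, with log2 ratios of -1.16 (interval -1.41 to -0.92) and -0.52 (interval -0.74 to -0.31). BAG4 was the lowest of the list in the 2B pair at -0.58 (interval -0.78 to -0.39).

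The HSP110 genes encode the nucleotide exchange factors of HSP70. HSPH1, also called HSP105, separated the C4-2B lines from the LNCaP lines and not the resistant from the parental ones, at 132 normalized CPM in parental LNCaP and 292 in parental C4-2B, and at 118 in LN-OlapR and 316 in 2B-OlapR. Its log2 ratios were -0.16 (interval -0.23 to -0.09) in the LN pair, 0.11 (interval 0.06 to 0.16) in the 2B pair and 1.15 (interval 1.09 to 1.21) in the parental pair. HSPA4, also called APG2, stood at 241 normalized CPM in LNCaP against 297 in LN-OlapR, and at 242 in C4-2B against 321 in 2B-OlapR, higher in both resistant lines with log2 ratios of 0.30 (interval 0.25 to 0.35) and 0.41 (interval 0.35 to 0.46). HSPA4L followed the first pair with 0.31 (interval 0.19 to 0.42) and did not differ beyond counting error in the second, at 0.02 (interval -0.09 to 0.13).

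HSPB1 had the largest log2 ratio of the LN pair among the members at 100 normalized CPM or more in every library. It encodes HSP27, a small heat shock protein that many carcinomas express, and lies on chromosome 7 from 76302544 to 76304295 on the plus strand. It stood at 804 normalized CPM in LN-OlapR and 458 in LNCaP, while 2B-OlapR had 1152 and C4-2B 1215. LNCaP was the lowest and LN-OlapR lay between LNCaP and the C4-2B lines, so that the log2 ratio came to 0.81 (interval 0.78 to 0.84) in the LN pair, -0.08 (interval -0.10 to -0.05) in the 2B pair and 1.41 (interval 1.38 to 1.44) in the parental pair. HSPB1 held nearly all of the summed level of the 5 genes numbered as small heat shock proteins, which was 474 normalized CPM for LNCaP and 825 for LN-OlapR, and 1238 for C4-2B and 1175 for 2B-OlapR. HSPB6 lay between 0.531 and 1.08 and HSPB9 at or under 0.290 in every line. HSPB11, a protein of intraflagellar transport that carries a small heat shock protein number, stood between 14.8 and 18.8.

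In the ER, the 2 most abundant members were lower in both resistant lines, and the sum of the others lay near 0 with a sign that turned with the scaling in the LN pair. HSP90B1, or GRP94, which folds integrins and Toll-like receptors, lies on chromosome 12 from 103930107 to 103953645 on the plus strand. It stood at 1195 normalized CPM in parental LNCaP and 1007 in parental C4-2B, and at 877 in LN-OlapR and 527 in 2B-OlapR, with 2B-OlapR the lowest. The log2 ratios were -0.45 (interval -0.47 to -0.42) and -0.93 (interval -0.97 to -0.90), the second past 1.5-fold. HSPA5, or BiP, the HSP70 that also holds the ER stress sensors inactive, on chromosome 9 from 125234853 to 125241330 on the minus strand, stood at 1008 normalized CPM in LNCaP against 802 in LN-OlapR, and at 1130.1 in C4-2B against 1029 in 2B-OlapR. Its log2 ratios of -0.33 (interval -0.36 to -0.30) and -0.13 (interval -0.16 to -0.11) had the same direction and were smaller. For each HSPA5 count there were 1.18 HSP90B1 counts in LNCaP and 1.09 in LN-OlapR, and 0.891 in parental C4-2B and 0.512 in 2B-OlapR, a ratio within each library. These were the genes with the ER stress elements printed above, and the part of the element in these values was not tested.

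Summed over the 13 ER members, the level was 2235 normalized CPM in LN-OlapR and 2753 in LNCaP, while 2B-OlapR had 2129 and C4-2B 2723, with log2 ratios of -0.30 (interval -0.32 to -0.28) and -0.36 (interval -0.37 to -0.34). For HSPA5 and HSP90B1 together they were -0.39 (interval -0.41 to -0.37) and -0.46 (interval -0.48 to -0.44). For the other 11, a division made after the values were seen, they were 0.02 (interval -0.02 to 0.05) and -0.03 (interval -0.07 to 0.00), both with 0 inside the interval. With scaling by total counts, which shifts all genes downward in both pairs, the other 11 gave -0.07 (interval -0.10 to -0.03) and -0.08 (interval -0.11 to -0.04), with 0 outside both intervals. By gene, 6 of the 13 were higher and 7 lower in each pair (46.2% higher, against 49.6% and 49.98% of all genes). DNAJB9 was the highest in both pairs, as given above. DNAJC1, or ERdj1, a ribosome-binding J protein of the ER membrane, stood at 48.7 normalized CPM in parental LNCaP and 70.9 in parental C4-2B, and at 30.2 in LN-OlapR and 65 in 2B-OlapR, and was the lowest in the LN pair at -0.69 (interval -0.82 to -0.56). DNAJC10, or ERdj5, which reduces disulfide bonds of proteins to be degraded, stood at 83.3 normalized CPM in LNCaP against 78.8 in LN-OlapR, and at 92.9 in C4-2B against 61.7 in 2B-OlapR, with -0.08 (interval -0.17 to 0.01) in the LN pair and -0.59 (interval -0.69 to -0.49) in the 2B pair. DNAJB11, or ERdj3, the secreted BiP cochaperone, stood at 117 normalized CPM in LN-OlapR and 98.3 in LNCaP, while 2B-OlapR had 134 and C4-2B 145, with 0.26 (interval 0.18 to 0.33) and -0.11 (interval -0.19 to -0.04). HSPA13, an HSP70 relative of the ER, had 0.01 (interval -0.13 to 0.16) and -0.19 (interval -0.37 to -0.01), and the sign of the first turned with scaling by total counts.

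**Figure D3:**
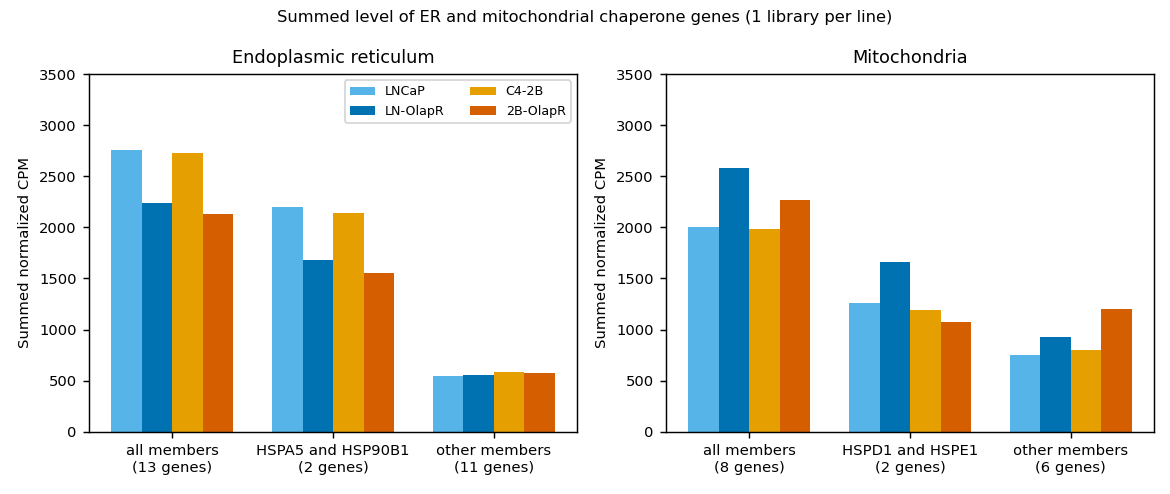
Summed normalized CPM of the ER members (left) and the mitochondrial members (right) in each library, for all members, for the leading genes and for the others. The bars for HSPA5 and HSP90B1 are lower in both resistant lines, and those of the other 11 ER genes lie between 550.1 and 586 in all 4 libraries.

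Among 13 further ER folding genes, 9 of the 12 analysed in the LN pair and 8 of 13 in the 2B pair were lower. Of all genes, 49.6% were higher in the LN pair and 49.98% in the 2B pair. Lower in both were 7, against 29.1% of all genes. None was past 1.5-fold in either resistant pair, where at least 10.6% of all genes were in each direction. With scaling by total counts 10 were lower in each pair, and 40.6% and 46.1% of all genes were then higher. With upper quartile factors the 2B pair instead had 7 higher and 6 lower, with 52.6% of all genes higher. MANF, a secreted ER stress protein, stood at 157 normalized CPM in parental LNCaP and 181 in parental C4-2B, and at 117 in LN-OlapR and 148 in 2B-OlapR, with -0.42 (interval -0.49 to -0.35) and -0.29 (interval -0.36 to -0.22). PDIA4, a disulfide isomerase, had opposite directions, 0.37 (interval 0.33 to 0.40) and -0.47 (interval -0.50 to -0.43), at 497 normalized CPM in LNCaP against 641 in LN-OlapR, and at 691 in C4-2B against 500.4 in 2B-OlapR. SIL1, which releases nucleotide from BiP, was the highest in the 2B pair at 0.47 (interval 0.36 to 0.57). SERPINH1, the collagen chaperone HSP47, was at 0.521 in LNCaP and at 0 counts in LN-OlapR, and at 8.94 and 9.31 in C4-2B and 2B-OlapR.

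In the mitochondria, the resistant pairs differed in which members were higher. HSPA9, or mortalin, the HSP70 that pulls proteins into the matrix, on chromosome 5 from 138553756 to 138575724 on the minus strand, stood at 522 normalized CPM in LN-OlapR and 396 in LNCaP, while 2B-OlapR had 696 and C4-2B 403. Both resistant lines were above both parental lines, with log2 ratios of 0.40 (interval 0.36 to 0.43) and 0.79 (interval 0.75 to 0.83), the second past 1.5-fold. HSPD1, the HSP60 chaperonin, on chromosome 2 from 197486581 to 197516737 on the minus strand, stood at 1024 normalized CPM in parental LNCaP and 996 in parental C4-2B, and at 1359 in LN-OlapR and 892 in 2B-OlapR, and HSPE1, its HSP10 lid, which lies head to head with it on chromosome 2 from 197499994 to 197503457 on the plus strand, at 235 normalized CPM in LNCaP against 299 in LN-OlapR, and at 192 in C4-2B against 181 in 2B-OlapR. Both genes were highest in LN-OlapR and lowest in 2B-OlapR. The log2 ratios of HSPD1 were 0.41 (interval 0.38 to 0.43) and -0.16 (interval -0.19 to -0.13), and those of HSPE1 were 0.35 (interval 0.30 to 0.40) and -0.09 (interval -0.15 to -0.02), so these neighbours had the same direction as each other and opposite directions in the resistant pairs. Their annotated genes overlap on opposite strands, and whether counting used strand is not given in the sources used here. Pseudogene copies took about as many reads of HSPD1 in every library, between 12.7% and 13.1% of the sum, and the sums gave 0.40 and -0.16.

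The 8 mitochondrial members summed to 2581 normalized CPM in LN-OlapR and 2008 in LNCaP, while 2B-OlapR had 2269.6 and C4-2B 1987, with log2 ratios of 0.36 (interval 0.35 to 0.38) and 0.19 (interval 0.17 to 0.21). Without HSPD1 and HSPE1 the other 6 gave 0.30 (interval 0.27 to 0.33) and 0.58 (interval 0.56 to 0.61). By gene, 7 of 8 were higher in the LN pair (87.5%, against 49.6% of all genes), and 4 of the 7 analysed in the 2B pair (57.1%, against 49.98%). DNAJA3, or TID1, the J protein that works with HSPA9, stood at 147 normalized CPM in parental LNCaP and 165 in parental C4-2B, and at 183 in LN-OlapR and 228 in 2B-OlapR, with 0.32 (interval 0.25 to 0.38) and 0.46 (interval 0.40 to 0.52). DNAJC19, a J protein of the inner membrane import motor, stood at 15.2 normalized CPM in LNCaP against 23.1 in LN-OlapR, and at 15.3 in C4-2B against 16.2 in 2B-OlapR, with 0.60 (interval 0.42 to 0.79) and 0.08 (interval -0.14 to 0.30). A pseudogene took between 19.7% and 29.98% of its reads, and the sum of both gave 0.57 in the LN pair, under 1.5-fold. In the 2B pair that sum gave -0.09 (interval -0.29 to 0.10), so the sign turned. The 4 of 7 above takes DNAJC19 without its copy. DNAJC15, or MCJ, an inner membrane protein that restrains complex I of the respiratory chain, had 118 counts in LNCaP and 113 in LN-OlapR and 0 in both C4-2B and 2B-OlapR. It stood at 4.39 and 4.84 normalized CPM, with a log2 ratio of 0.14 (interval -0.23 to 0.51), and between the backgrounds it was at least 29.9-fold higher in LNCaP than in C4-2B and, among the resistant lines, LN-OlapR exceeded 2B-OlapR by at least 33.5-fold. Those bounds take 3 counts in the library at 0.

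Of 12 genes for mitochondrial proteases and partners of HSPA9, 9 were higher in the LN pair (75%, against 49.6% of all genes). In the 2B pair 8 were higher (66.7%, against 49.98%), and 7 were higher in both (against 28.5%). With scaling by total counts 7 were higher in each pair (58.3%, against 40.6% and 46.1% of all genes). Past 1.5-fold higher was 1 gene in each pair (8.33%, against 10.6% and 10.7% of all genes). In the 2B pair this was GRPEL1, the nucleotide exchange factor of HSPA9, at 125 normalized CPM in LN-OlapR and 103 in LNCaP, while 2B-OlapR had 139.8 and C4-2B 87.1, with log2 ratios of 0.27 (interval 0.20 to 0.35) and 0.68 (interval 0.60 to 0.77), the same direction as HSPA9 in both pairs. In the LN pair it was CLPP, the matrix protease, at 0.65 (interval 0.56 to 0.74). SPG7 was the lowest in the LN pair at -0.25 (interval -0.32 to -0.18) and AFG3L2 in the 2B pair at -0.35 (interval -0.42 to -0.28), which encode the subunits of one inner membrane protease.

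Of the DNAJA and DNAJB genes analysed, 3 of 3 and 8 of 9 had a log2 ratio above 0 in the 2B pair, against 49.98% of all genes, and 1 of 3 and 6 of 9 in the LN pair, against 49.6%. For 5 of the 9 DNAJB genes the interval in the 2B pair lay above 0, against 4893 of all 15527 genes analysed. With scaling by total counts 6 of the 9 were above 0, DNAJB5 and DNAJB6 having turned, against 46.1% of all genes. DNAJB1, the stress-inducible HSP40, on chromosome 19 from 14514770 to 14529770 on the minus strand, stood at 139 normalized CPM in parental LNCaP and 119.7 in parental C4-2B, and at 179.8 in LN-OlapR and 199 in 2B-OlapR. Both resistant lines were above both parental lines, with log2 ratios of 0.37 (interval 0.31 to 0.44) and 0.73 (interval 0.66 to 0.80). DNAJA1, the main class A partner of HSC70, stood at 249 normalized CPM in LNCaP against 238 in LN-OlapR, and at 211 in C4-2B against 288 in 2B-OlapR, with -0.06 (interval -0.12 to -0.01) and 0.45 (interval 0.40 to 0.51), and was highest in 2B-OlapR. DNAJA2, the other abundant class A protein of the cytosol, had -0.01 (interval -0.09 to 0.06) and 0.23 (interval 0.15 to 0.30). DNAJB6, which keeps polyglutamine proteins from aggregating and has a heat shock element in the window printed above, stood at 61.9 normalized CPM in LN-OlapR and 39.95 in LNCaP, while 2B-OlapR had 68.3 and C4-2B 68.1, with 0.63 (interval 0.52 to 0.75) and 0.01 (interval -0.10 to 0.11). Its pseudogenes took between 17.5% and 21.3% of the reads of the sum, which gave 0.62 in the LN pair and -0.06 (interval -0.16 to 0.03) in the 2B pair. DNAJB4, or HLJ1, stood at 11.4 normalized CPM in parental LNCaP and 6.74 in parental C4-2B, and at 7.33 in LN-OlapR and 9.51 in 2B-OlapR, lower in LN-OlapR and higher in 2B-OlapR than in the line of origin, with -0.64 (interval -0.91 to -0.37) and 0.49 (interval 0.18 to 0.81). DNAJA4 reached 1.03 at most and DNAJB7 0.781.

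The members with a heat shock element in the searched windows did not all go in one direction. The part of the element in these values was not tested. In the LN pair the log2 ratios were -0.06 for DNAJA1, 0.63 for DNAJB6, -0.05 for HSP90AA1, 0.22 for HSP90AB1, 0.20 for HSPA6, 0.23 for HSPA8 and 0.41 for HSPD1. In the 2B pair they were, in the same order, 0.45, 0.01, -0.39, 0.07, 0.38, 0.20 and -0.16. HSP90AA1 and HSP90AB1, which both hold the element, went in opposite directions in each resistant pair.

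**Figure D4:**
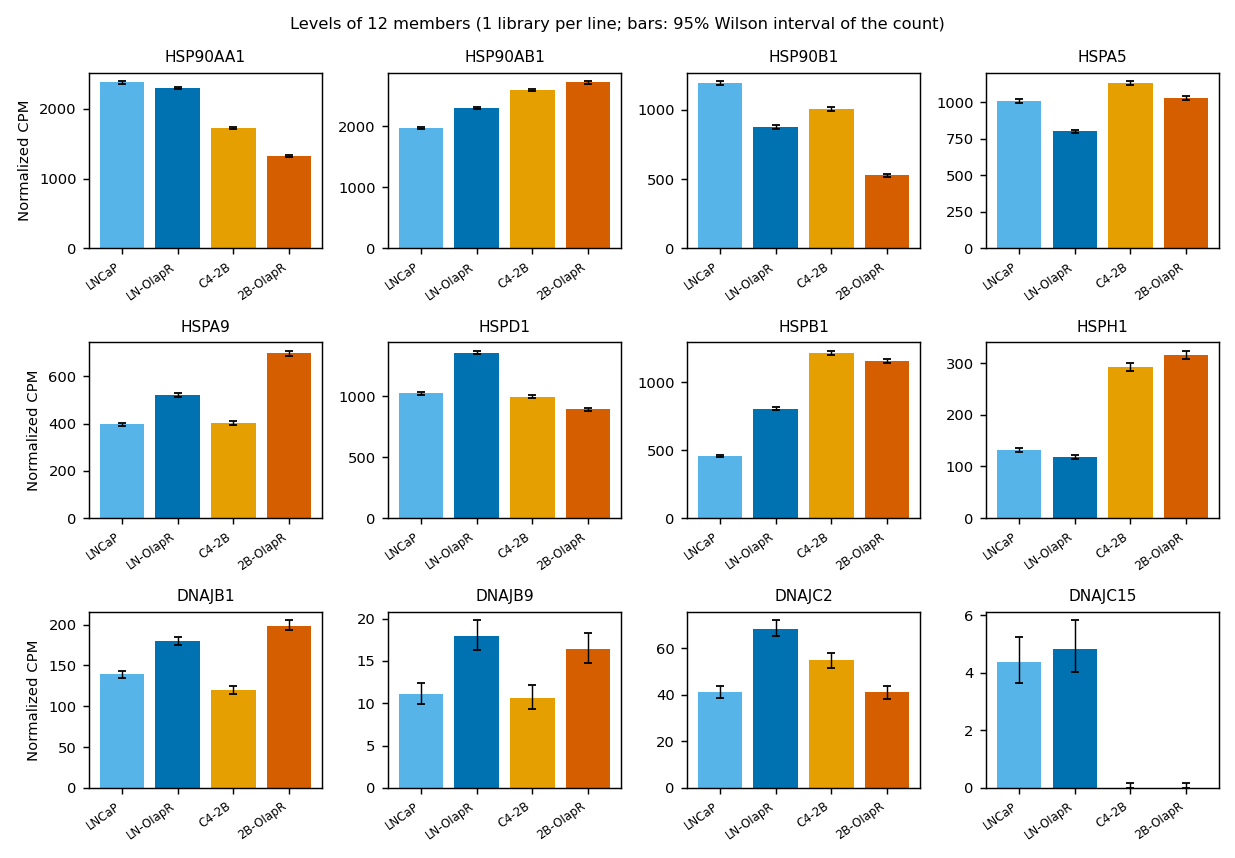
Level of 12 members in each library in normalized CPM, on axes that start at 0, with the 95% Wilson interval of the count. HSPA9, DNAJB1 and DNAJB9 are higher in both resistant lines than in both parental lines, HSP90B1 is lowest in 2B-OlapR, HSPB1 lowest in LNCaP, and DNAJC15 has no counts in the C4-2B lines.

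The 26 DNAJC genes, whose products carry a J domain in otherwise unlike proteins, were split, with 12 higher and 14 lower in the LN pair and 14 higher and 11 lower in the 2B pair. Scaling by total counts made the LN split 9 higher against 17 lower. Of all genes, 49.6% were higher in the LN pair (40.6% with that scaling) and 49.98% in the 2B pair. DNAJC2, or MPP11, a J protein at the ribosome, stood at 41.2 normalized CPM in LNCaP against 68.5 in LN-OlapR, and at 54.8 in C4-2B against 41 in 2B-OlapR. It was past 1.5-fold higher in LN-OlapR, at 0.73 (interval 0.62 to 0.84), and lower in 2B-OlapR, at -0.42 (interval -0.55 to -0.29). DNAJC12, a cochaperone of the aromatic amino acid hydroxylases, stood at 4.24 normalized CPM in LN-OlapR and 6.17 in LNCaP, while 2B-OlapR had 3.23 and C4-2B 8.06, lower in both resistant lines with -0.54 (interval -0.90 to -0.18) and -1.31 (interval -1.72 to -0.90), and was the member past 2-fold lower in the 2B pair. DNAJC17, which is bound to the spliceosome, stood at 14.7 normalized CPM in parental LNCaP and 12.4 in parental C4-2B, and at 9.30 in LN-OlapR and 12.2 in 2B-OlapR, with -0.65 (interval -0.89 to -0.42) and -0.03 (interval -0.28 to 0.22). DNAJC5, the cysteine string protein of secretory vesicles, took the most counts of the family without correction for length, at 162 normalized CPM in LNCaP against 182 in LN-OlapR, and at 186 in C4-2B against 220.4 in 2B-OlapR. It falls outside the rule for named genes and was chosen after its values were seen, as were HSPA6, SERPINH1, GAK, TRAP1 and, for the parental pair, DNAJB14 and DNAJC22. DNAJC27 also falls outside that rule and is named only among the flagged results. The remaining DNAJC genes analysed in both resistant pairs were within 1.5-fold in each.

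Between the parental lines, 57 members were analysed, without DNAJA4, DNAJB7, HSPA1A, HSPA2, HSPB6 and HSPB9. The median log2 ratio of C4-2B over LNCaP was -0.04, with 27 higher and 30 lower, against -0.02 over all genes. At 1.5-fold or more, 7 (12.3%) were higher, against 16.1% of all genes, and 6 (10.5%) were lower, against 16.1%. At 2-fold or more, 3 were higher, against 8.00% of all genes, and 3 lower, against 7.18%. The 3 higher were HSPB8 at 2.90 (interval 2.00 to 3.81), HSPB1 at 1.41 (interval 1.38 to 1.44) and HSPH1 at 1.15 (interval 1.09 to 1.21), and all of them are cytosolic. The 3 lower were DNAJC15, at 0 counts in C4-2B, HSPA1L at -1.46 (interval -2.15 to -0.77) and DNAJC28 at -1.07 (interval -1.68 to -0.46). Among the others past 1.5-fold were DNAJB6 at 0.77 (interval 0.65 to 0.88), DNAJC22 at 0.69 (interval 0.58 to 0.80) and DNAJB14, of the ER membrane, at -0.73 (interval -0.91 to -0.55). Summed over all 32 cytosolic members the log2 ratio was 0.12 (interval 0.11 to 0.12), and without HSPA8, HSP90AA1 and HSP90AB1 it was 0.57 (interval 0.56 to 0.59). Nearly all of the latter came from HSPB1 and HSPH1, and without these as well, a choice made after the values were seen, the other 27 gave 0.02 (interval -0.0049 to 0.04). These sums leave out HSPA1B, which the symbol rule does not cover. HSPA1A and HSPA1B together had a log2 ratio of 0.84 (interval 0.79 to 0.88) between the parental lines. With HSPA1B added, the sum over all cytosolic members gave 0.15 (interval 0.14 to 0.15). In the ER and the mitochondria the summed levels of the parental lines differed by -0.02 (interval -0.03 to 0.00) and -0.02 (interval -0.03 to 0.00), both with 0 inside the interval.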

How the data were processed

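The authors isolated total RNA with TRIzol, made stranded poly(A) libraries from 100 ng and sequenced 1 library per cell line. Per the labels the cells had been plated for 48 h without selection, whereas the study's methods give a longer time. The authors deposited estimated counts per gene, of which 46.2% are not whole numbers, with no scaling between libraries. The submitters' processing notes name STAR and Partek and the build GRCh38, and the annotation is not given in the sources used here. Each of the 22637 genes sums to at least 10.0 counts, so rarer genes had been removed.

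The estimated counts were rounded and scaled with TMM factors (edgeR 4.0.16, R 4.3.3). Log2 ratios used a pseudocount of 0.5, a gene was analysed where its pair averaged 1 normalized CPM or more, and a gene was called at 1.5-fold. Intervals at the 95% level are normal intervals of the 2 counts for ratios and Wilson intervals for levels and shares. They cover counting error only. A bound against a library at 0 takes 3 counts there. Totals were 19950537 to 26394267 counts. With 1 library per line no model was fitted. Compartments and roles were assigned by hand. Gene positions and transcript lengths come from GENCODE 29, and promoters from RefSeq (GRCh38.p14). Pseudogene copies were matched by symbol.

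The members, the lists (HSP90 and HSP70 cochaperones, ER and mitochondrial partners, CCT chaperonin, prefoldin, HSF regulators, chaperone genes outside the symbol rule) and the markers were chosen with earlier results of these data known, and 2 genes of the lists and markers are not reported here. Named were the leading member of each family and compartment, every member past 1.5-fold in a resistant pair or 2-fold in the parental pair, the extremes of each family and list, and members at 0 counts. Alternatives were scaling by total counts, DESeq2 1.42.0 size factors or by upper quartiles, 2 as the pseudocount, 0.1 or 10 as the lowest mean, unrounded counts and a call at 2-fold. Counts were also simulated with counting error alone and the same scaling factors, as the intervals assume. This checks the calculation and cannot give the rate of false calls between cultures. On these simulated counts, 100.0% of 200 genes changed 4-fold were called at 1.5-fold in each pair. Unchanged genes were called 159 times among 15173 for the LN pair, 282 times among 15327 for the 2B pair and 235 times among 15380 for the parental pair, and the intervals held the true value for 95.6%, 95.3% and 95.01% of the genes.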

Additional observations from a re-analysis of the deposited data

Results flagged for a closer look

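For 3 members the resistant lines stood on opposite sides of their lines of origin, by more than a small fixed fold in each. DNAJC2, the ribosome-associated J protein, had a log2 ratio of 0.73 in the LN pair and -0.42 in the 2B pair, a difference of 1.15. DNAJB4 had -0.64 and 0.49, a difference of -1.13. DNAJC27, a small GTPase with a J domain, had -0.36 and 0.43, a difference of -0.80, at no more than 4.91 normalized CPM in any line and with 0 inside both counting intervals. With 1 library per line these differences were not tested. Opposite directions were common among all genes. Whatever the size of the ratios, 60.7% of the 56 members had the same direction in both pairs, against 57.6% of 14602 genes. The share of all genes past the small fixed fold on opposite sides is not given here. Whether these 3 results are particular to the members was therefore not tested.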

How the results depend on the processing

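With a minimum mean of 10 normalized CPM, which leaves fewer genes, the LN pair had 5 members 1.5-fold higher and 2 lower, with 3 higher and 2 lower in the 2B pair and 1 lower in the parental pair. The shares of all genes past 1.5-fold at that minimum are not given here, so whether these counts are particular to the members was not tested. Calling at 2-fold left the LN pair with 2 higher and 1 lower, the 2B pair with 0 and 1, and the parental pair with 3 and 3. The other 67 recomputed medians and counts stayed within 1.5 times the count or within the interval of the median. Scaling by total counts lowered the median of all genes in the LN pair to -0.088 and that of the members to 0.02, and gave 6 members 1.5-fold higher and 6 lower. These counts, too, stand without the shares of all genes under the same scaling. With total counts DNAJB6 and DNAJC19 were under 1.5-fold in the LN pair, at 0.55 and 0.52, and DNAJB9 was just under it in the 2B pair, at 0.58. With upper quartile factors DNAJC10 was no longer past 1.5-fold lower in the 2B pair, at -0.56. Of all members analysed, signs turned with the scaling for 4 in the LN pair (HSPA13 at -0.07 to 0.02, DNAJC7, DNAJC21 and DNAJC22), for 6 in the 2B pair (DNAJB6 at -0.04 to 0.03, HSPA4L at -0.02 to 0.05, HSPA1A at -0.06 to 0.0077, DNAJB5, DNAJC18 and DNAJC30) and for DNAJC25 in the parental pair. With total counts they also turned for the sum of the 11 other ER members in the LN pair, to -0.07, and for HSPA1A and HSPA1B together in the 2B pair, to -0.03. So did the sign of the sum of all 63 members in the 2B pair, to -0.04. The summed ER and mitochondrial levels of the parental pair, near 0, became 0.01 each with upper quartile factors. Counts of higher genes under each scaling, summing members with their copies, sums without leading genes, and the rescaled sums were added after seeing the data. No replicate could be left out, as each line has 1 library. No paired analysis was possible because each group holds a single library. Low members are limited by depth, since 3 counts correspond to between 0.112 normalized CPM (LNCaP) and 0.147 (C4-2B).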

Other observations

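Several chaperone genes that the symbol rule leaves out differed between the lines. GAK, the widely expressed relative of auxilin, had 70.4 in C4-2B and 139 in 2B-OlapR, a log2 ratio of 0.98 (interval 0.89 to 1.07), beside 0.02 in the LN pair. CRYAB, the small heat shock protein alpha B crystallin, had 1.71 and 4.54 in the same lines, a log2 ratio of 1.39 (interval 0.84 to 1.95). HSPA12B, a distant HSP70 relative of endothelium, was the highest in the LN pair at 0.98 (interval 0.41 to 1.54). TRAP1, the mitochondrial HSP90, stood at 206, 233, 292 and 326 in LNCaP, LN-OlapR, C4-2B and 2B-OlapR. HYOU1, an HSP110 relative of the ER, was the lowest of these genes in both resistant pairs, with log2 ratios of -0.25 (interval -0.29 to -0.21) and -0.17. Of the 8 such genes in the table, 5 were higher and 2 lower in both resistant pairs, against 28.5% and 29.1% of all genes.

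The CCT chaperonin, which folds actin and tubulin, showed no common direction, with 3 of 8 genes higher in the LN pair (2 with scaling by total counts) and 6 of 8 in the 2B pair, where CCT5 was past 1.5-fold at 0.61 and CCT2 lowest at -0.25. Of all genes, 49.6% were higher in the LN pair (40.6% with scaling by total counts) and 49.98% in the 2B pair. In the LN pair CCT3 and CCT6A were the extremes at 0.18 and -0.22. Prefoldin, which hands clients to CCT, had 5 of 6 genes higher in the LN pair (2 with scaling by total counts) and 3 of 6 in the 2B pair, with PFDN2 at 0.47 and PFDN1 at -0.05 as extremes of the first and PFDN1 at 0.48 and PFDN4 at -0.46 of the second. Among 5 HSF regulators, HSF1, the main heat shock factor, had log2 ratios of 0.02 (interval -0.05 to 0.09) and 0.35 (interval 0.28 to 0.42), and HSBP1, which binds and restrains it, -0.13 and -0.62. HSF4 was the highest of this list in the LN pair at 0.66, where HSF2 was the lowest at -0.35.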
